A study of Mus musculus with 18 samples.

Results

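The occupancy of the transcription factors NFIA and NFIB in normal mouse granule neuron progenitors (GNP) was described from 6 CUT&Tag libraries, out of 18 in the series. They are all the libraries whose title names GNP: 3 against NFIA and 3 against NFIB, paired by preparation. In each of the 3 preparations, cells were isolated on a Percoll gradient from cerebellum at postnatal day 7, and both targets were profiled in 100000 cells per library. The labels used here give no genotype, strain or sex for these mice. They do not say whether the preparations came from different animals, so the permutation p-values reflect variation among preparations that may be technical. The gene test took its variance from a trend over genes, as given below. Preparations 1 and 2 carry a first title date. Preparation 3 carries a second date and has libraries titled as merged. The other 12 libraries came from hyperplasia (day 28) and medulloblastoma (adult) and were used only to measure the GNP regions in samples that had not chosen them.

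NFIA and NFIB belong to the nuclear factor I family, whose 4 mouse genes are Nfia, Nfib, Nfic and Nfix. The proteins bind DNA as homodimers or heterodimers through a closely similar amino-terminal domain. The preferred site is a palindrome with TTGGC on one arm and GCCAA on the other, separated by 5 bases. A single arm can also be bound, more weakly. In the cerebellum, NFI proteins are known for their part in the maturation of granule neurons, whose progenitors divide in the external germinal layer in response to Sonic hedgehog (SHH). CUT&Tag directs a transposase to chromatin-bound protein with an antibody, so that sequenced fragments mark the antibody's target. Related proteins can share antibody epitopes. Antibody specificity was not tested here.

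A summit is the 1-base position of highest signal within a peak called in a single library, and its score is on a −log10 scale, so larger scores rank higher. From each library the 30000 highest-scoring summits on the 19 autosomes were taken, called top summits below. Each was widened by 100 bases to both sides, and overlapping windows of the 6 libraries were merged into 58018 regions. A region held by all 6 libraries is called common. A region with a top summit in all 3 libraries of a target and in none of the other is called NFIA-only or NFIB-only, which refers to the top summits and not to absence of the protein.

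There were 12239 common regions, 21.1% of all regions. NFIA-only regions numbered 199 (0.343%) and NFIB-only regions 251 (0.433%). Among the 4903 regions held by exactly 3 libraries, 9.18% split by target in this way. Of the 33620 regions held by at least 2 libraries, 90.0% held a top summit of both targets. These counts are those the grouping rule fixes and are descriptions. With all listed summits in place of the top 30000, NFIA-only regions numbered 86 and NFIB-only regions 2921, and the NFIB lists were the longer ones.

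The sequences of 7 promoters are given here. The first 4 are the promoter windows with the best worst rank among those holding a top summit of every library: Ubxn6, whose product is a cofactor of the p97 ATPase, Rab1a, a GTPase gene of vesicle transport, Mxd4, a MAX partner that opposes MYC, and Tle4, a Groucho-family corepressor gene. Their worst ranks were 71, 121, 122 and 174. Mycn, the MYC family member that drives proliferation of granule progenitors, had a top summit of all 6 libraries at its promoter, at much lower ranks. Lix1l and Ppp4c, the catalytic subunit of protein phosphatase 4, had promoter summits in an NFIA-only and an NFIB-only region, respectively. The windows run 5′ to 3′ on the gene's strand from 250 bases before to 50 bases after the RefSeq start site (GRCm38.p6), and capitals mark each TTGGC or GCCAA.

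Ubxn6, chr17:56079284-56079583, minus strand: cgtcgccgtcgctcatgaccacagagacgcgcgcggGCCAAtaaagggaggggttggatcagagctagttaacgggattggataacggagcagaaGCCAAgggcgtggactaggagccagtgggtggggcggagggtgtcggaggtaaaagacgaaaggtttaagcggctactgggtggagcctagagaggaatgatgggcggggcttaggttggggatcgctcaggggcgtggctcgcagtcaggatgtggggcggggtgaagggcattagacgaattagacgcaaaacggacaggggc
Rab1a, chr11:20201162-20201461, plus strand: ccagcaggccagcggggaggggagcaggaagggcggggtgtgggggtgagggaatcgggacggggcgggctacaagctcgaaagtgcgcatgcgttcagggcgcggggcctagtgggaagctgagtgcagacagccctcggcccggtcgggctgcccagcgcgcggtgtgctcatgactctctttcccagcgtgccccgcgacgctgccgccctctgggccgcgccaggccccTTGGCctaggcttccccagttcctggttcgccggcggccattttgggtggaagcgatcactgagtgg
Mxd4, chr5:34187661-34187960, minus strand: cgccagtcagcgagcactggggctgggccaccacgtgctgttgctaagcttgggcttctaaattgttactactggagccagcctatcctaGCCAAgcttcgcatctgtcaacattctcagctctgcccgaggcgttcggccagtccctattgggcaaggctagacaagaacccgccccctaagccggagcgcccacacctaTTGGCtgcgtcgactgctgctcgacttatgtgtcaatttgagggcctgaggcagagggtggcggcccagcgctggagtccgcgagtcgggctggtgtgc
Tle4, chr19:14598134-14598433, minus strand: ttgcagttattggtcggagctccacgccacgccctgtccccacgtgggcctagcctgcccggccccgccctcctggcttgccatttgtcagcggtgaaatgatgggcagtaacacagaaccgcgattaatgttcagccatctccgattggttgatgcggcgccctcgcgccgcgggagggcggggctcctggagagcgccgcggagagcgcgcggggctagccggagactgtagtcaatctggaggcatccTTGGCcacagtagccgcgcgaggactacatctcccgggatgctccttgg
Mycn, chr12:12941787-12942086, minus strand: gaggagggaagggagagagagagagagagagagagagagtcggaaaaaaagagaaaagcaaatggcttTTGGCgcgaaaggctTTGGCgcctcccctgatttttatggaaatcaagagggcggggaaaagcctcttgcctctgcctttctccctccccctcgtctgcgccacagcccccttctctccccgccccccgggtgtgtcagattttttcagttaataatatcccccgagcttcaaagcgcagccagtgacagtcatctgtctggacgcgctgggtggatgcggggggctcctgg
Lix1l, chr3:96600883-96601182, plus strand: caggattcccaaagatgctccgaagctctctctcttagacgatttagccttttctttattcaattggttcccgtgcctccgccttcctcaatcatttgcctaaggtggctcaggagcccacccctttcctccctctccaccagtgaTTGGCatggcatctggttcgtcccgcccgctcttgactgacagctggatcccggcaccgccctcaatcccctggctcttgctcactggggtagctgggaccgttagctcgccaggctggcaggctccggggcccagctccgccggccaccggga
Ppp4c, chr7:126792315-126792614, minus strand: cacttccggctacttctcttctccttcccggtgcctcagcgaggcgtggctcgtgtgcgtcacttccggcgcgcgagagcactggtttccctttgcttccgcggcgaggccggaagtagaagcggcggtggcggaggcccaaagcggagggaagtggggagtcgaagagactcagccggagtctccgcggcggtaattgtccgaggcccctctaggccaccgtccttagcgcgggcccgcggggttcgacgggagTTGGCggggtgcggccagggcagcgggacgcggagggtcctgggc

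In the Mxd4 window the nearest of the 2 NFI arms lay 4, 38 and 6 bases from the top summit of NFIA libraries 1 to 3. In NFIB libraries 1 to 3 it lay 19, 10 and 4 bases away. Both targets therefore had their summit at the same short stretch of the Mxd4 promoter. In the other 3 strongest promoters the nearest arm was far from the summits of both targets, at 92 to 165 bases in Ubxn6, 139 to 205 in Rab1a and 135 to 170 in Tle4. At Mycn, with 2 arms, the distance was 32 to 137 bases.

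The lists differed in length and in score between targets. Over all chromosomes they held 55925, 77021 and 85145 summits for NFIA (preparations 1 to 3) and 88628, 159474 and 130282 for NFIB. Each NFIB list was longer than the NFIA list of its preparation, with a mean log2 ratio of NFIA to NFIB of −0.78 ± 0.24 (SD, n = 3; exact sign-flip permutation test, two-sided p = 0.25, the smallest that 3 pairs allow). Scores of 10 or more were held by 5234, 6449 and 16348 NFIA summits and by 21648, 29949 and 29221 NFIB summits. Sequencing depth is unknown, so list length was not read as occupancy and all libraries were compared over equal numbers of summits. The deposited list is named for the other target than the title in 2 of these 6 cases: the NFIB library of preparation 1 and the NFIA library of preparation 3. In preparation 2 both names match the titles. Targets are by title unless stated.

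The share of a library's top summits that fell in common regions was 42.2%, 43.4% and 48.3% for NFIA and 45.1%, 49.3% and 48.5% for NFIB. Every library holds all 12239 common regions by definition. This share therefore varies only with the number of summits a library has within them, and does not measure how many regions are shared. NFIA was lower in every pair, but the difference of −3.03 ± 2.84 percentage points (SD, n = 3) had an exact two-sided sign-flip p of 0.25. Regions held by a single library made up 24.1%, 19.6% and 9.07% of the NFIA libraries' regions and 14.7%, 8.97% and 9.25% of the NFIB libraries' regions. The 2 NFIA libraries with the shortest lists had the most such regions. By the name of the deposited list, in place of the title, both measures separated without overlap. The 3 lists named for NFIA had 42.2% to 45.1% of top summits in common regions and 14.7% to 24.1% of regions alone, and the 3 named for NFIB had 48.3% to 49.3% and 8.97% to 9.25%. The lists named for NFIA held 55925 to 88628 summits and those named for NFIB 85145 to 159474. All lists named for NFIA carry the first title date. Those named for NFIB are both merged libraries of preparation 3 and the NFIB library of preparation 2. The latter is of the first title date and not titled as merged, and had 49.3% of top summits in common regions and 8.97% of regions alone. The NFIB list of preparation 1, named for NFIA, held 88628 summits, with 14.7% of regions alone. The NFIA list of preparation 3, named for NFIB, held 85145, with 9.07%. Name, title date, merging and list length thus overlap only in part, here and in later comparisons by list name. What part each has was not tested.

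**Figure D1:**
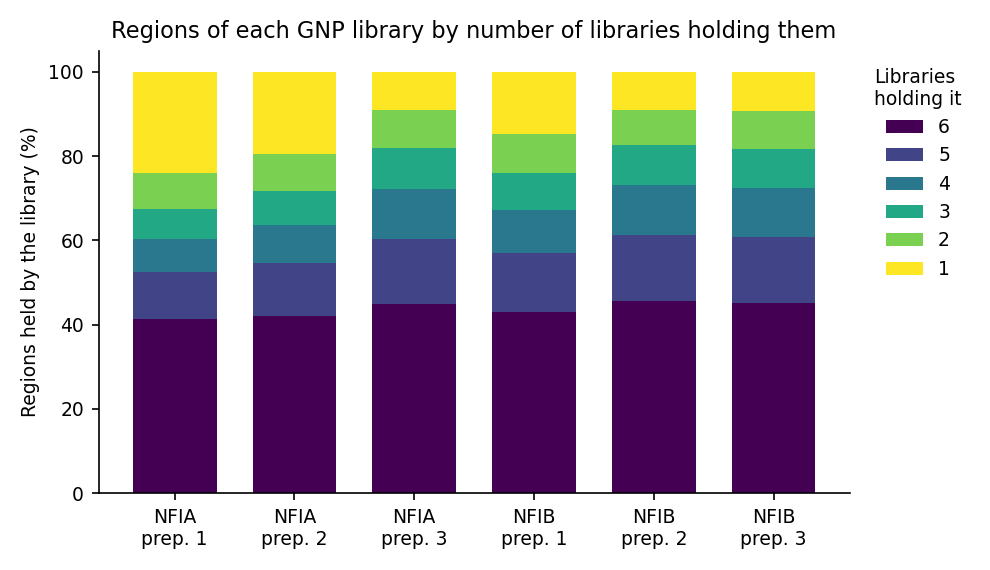
Regions of each GNP library (percent of the regions that the library holds, vertical axis) by the number of libraries that hold them, from 6 (darkest) to 1 (lightest), 1 bar per library. Common regions, the same 12239 in every bar by definition, make up a similar part of each, while regions of a single library range from 8.97% to 24.1%.

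Sharing followed rank in every library. Of the first 5000 summits, 93.3% to 95.1% lay in common regions, and of those ranked 25001 to 30000 only 7.52% to 15.9% did. In that last group, 22.3% to 60.1% lay in regions held by no other library. The median best rank was 3384 in common regions, 14127 in NFIA-only and 14411 in NFIB-only regions. The median worst rank was 14463 in common regions, against 26167 and 25820 among the libraries holding target-only regions. Regions held by any 3 libraries had similar values, with a median best rank of 14662 and a median worst rank of 25874, so these ranks are not particular to the target-only regions.

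**Figure D2:**
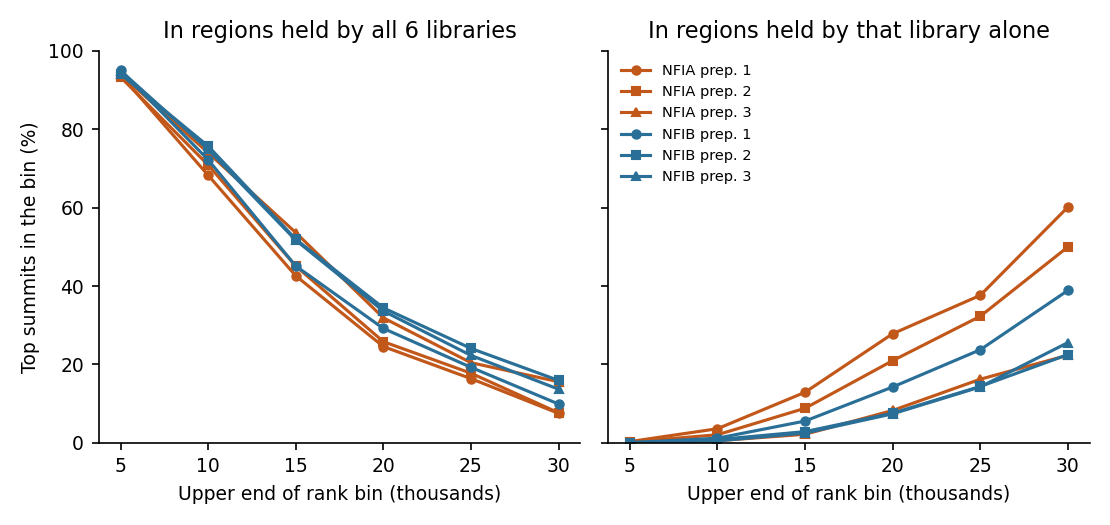
Percent of top summits (vertical axis) in regions held by all 6 libraries (left) and by that library alone (right), in bins of 5000 ranks (horizontal axis, upper end of the bin), with NFIA in orange, NFIB in blue and a line per library. All lines start between 93.3% and 95.1% on the left and fall with rank, without separating by target.

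When the whole lists were searched rather than the top 30000, most target-only regions held a lower-ranked summit of the other target. Of the 199 NFIA-only regions, 77.4%, 93.0% and 92.5% had a listed summit of NFIB libraries 1, 2 and 3, and 5 regions had none. Of the 251 NFIB-only regions, 43.0%, 56.2% and 84.9% had a listed summit of NFIA libraries 1, 2 and 3, and 17 had none. The 5 NFIA-only regions were nearest to Pnpla8, Tcf20, Scrt2, Ubxn8 and Vps35l. The higher shares went with the longer lists.

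Similarity between libraries was measured with the Jaccard index, the number of regions held by both divided by the number held by either. For NFIA and NFIB of the same preparation the mean index was 0.502 (0.438 to 0.580, 3 pairs). For different targets of different preparations it was 0.497 (0.450 to 0.586, 6 pairs), and for the same target 0.498 (0.413 to 0.575, 6 pairs). The highest value, 0.586, joined the NFIB library of preparation 2 with the NFIA library of preparation 3. The lowest, 0.413, joined NFIA of preparations 1 and 2. By the name of the deposited list, the 3 pairs of lists named for NFIB were the 3 highest (0.575 to 0.586). The 3 pairs of lists named for NFIA had 0.413 to 0.464, and the 9 pairs with different names 0.450 to 0.530. Same-target pairs exceeded other-target pairs by 0.000874 (exact permutation of targets within preparations, two-sided p = 0.75, smallest possible 0.25). Pairs from the same preparation exceeded those from other preparations by 0.00434 (exact permutation over 6 arrangements, two-sided p = 0.667, smallest possible 0.167). Neither difference exceeded the spread between pairs. Within the first title date (preparations 1 and 2) they were 0.0108 and 0.00203, and the second date holds a single preparation. The same-target difference was larger in the 4 libraries with matching list names (0.0282), with all listed summits (0.0235; exact p = 0.25) and with all summits of a score of at least 5 (0.0768; exact p = 0.25), and the design could not have reached 0.05 in any of them. The 3 pairs of NFIB libraries had indices of 0.527 to 0.575 and the 3 pairs of NFIA libraries 0.413 to 0.490, beside the longer and higher-scoring NFIB lists. What part list length has in this was not tested. With 3 preparations the permutations could not have reached 0.05 for a difference of any size, so they cannot decide whether the targets differ.

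**Figure D3:**
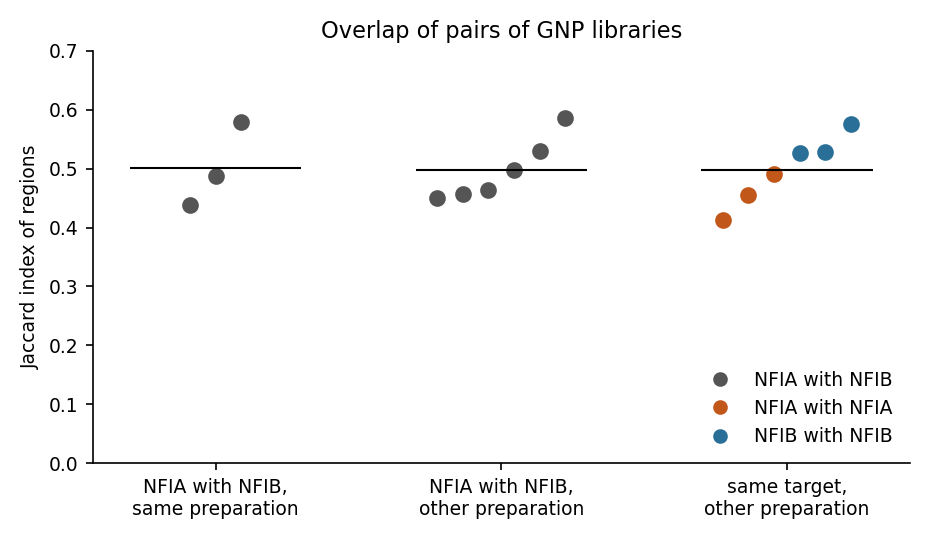
Jaccard index over regions (vertical axis) for the 15 pairs of GNP libraries, grouped as NFIA with NFIB of the same preparation, NFIA with NFIB of another preparation, and the same target (horizontal axis; NFIA pairs orange, NFIB pairs blue), with each group's mean as a line. The means are 0.502, 0.497 and 0.498, and the ranges overlap.

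Rank order was also shared. In regions held by both libraries of a pair, Spearman's correlation of the ranks was 0.600 to 0.724 across the 15 pairs, which is a description over regions and not over replicates. Summits of a pair that lay within 200 bases of each other were a median of 41 to 69 bases apart. At most 0.537% of top summits had the identical position in another library, so no library was a copy of another.

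Common regions lay nearer to gene ends than regions of a single library. Within 1 kb of either end of a protein-coding gene span were 30.98% of common regions, 26.1% of NFIA-only, 26.7% of NFIB-only and 17.1% of single-library regions. Further inside a gene were 37.6%, 40.7%, 41.0% and 45.1%, in the same order. Of regions held by any 3 libraries, 23.4% were near a gene end, and of all regions 22.7%. Distance was taken from the region's edge, and common regions were wider than single-library regions (median 406 against 201 bases). Width and rank were not adjusted for. Counted by library, 24.2%, 23.8% and 27.6% of NFIA top summits and 25.0%, 29.2% and 27.04% of NFIB top summits were near a gene end. The paired difference was −1.88 ± 3.16 percentage points (SD, n = 3; exact sign-flip test, two-sided p = 0.5), with NFIA lower in 2 of 3 pairs. Within the first title date it was −3.10, without preparation 2 it was −0.093, and in the 4 libraries with matching list names it was −4.13. By list name, the 3 lists named for NFIA had 23.8% to 24.99% near a gene end and the 3 named for NFIB 27.04% to 29.2%.

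The most highly ranked common region lay at an end of Tbl2 (chr5:135149317-135149649). Its ranks were 19, 11 and 4 in NFIA and 7, 4 and 3 in NFIB libraries, with scores of 44.8, 49.6 and 71.6 against 112.0, 135.3 and 116.7. At this region the scores did not overlap between targets while the ranks did. That is not particular to the region, since median scores of all top summits did not overlap either. They were 5.94, 6.40 and 10.4 in NFIA and 12.7, 15.9 and 15.8 in NFIB libraries. The next common region by worst rank lay 31243 bases from Mycn (chr12:12904552-12904850), with ranks 70, 21 and 26 in NFIA and 33, 15 and 17 in NFIB. Thus the strongest Mycn region was distal, whereas the promoter summits printed above ranked 14477, 6554 and 27335 in NFIA and 9196, 18896 and 14670 in NFIB. The other 8 of the first 10 included regions at ends of Ubxn6, Rab40c and Stmn2, which encodes a microtubule regulator of neurites. Others lay between genes near Endov, Edn2, which encodes an endothelin peptide, and Rybp, which encodes a Polycomb repressive complex subunit. On chromosomes 10 and 11, 2 of them had no protein-coding gene within 100 kb. All 10 regions held a top summit in each of the 12 hyperplasia and tumor libraries.

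Common regions had a protein-coding gene within 100 kb in 11001 cases and fell to 6925 of 20661 genes (33.5%). Most of these genes had a single one. Auts2, which encodes a neuronal chromatin and cytoskeletal regulator, had 20, Gse1 and Camta1 had 17 each, and Sdk1, an adhesion molecule of synapses, had 13. Nav2, Hivep3 and Msra had 12 each, Cdh13, Nfia, Slc39a11, Zbtb7c and Plxna4 had 11 each, and Gli2 and Ephb1 had 10 each. Long genes collect more regions: Auts2 spans 1106 kb and carried 1.81 common regions per 100 kb, while Gli2 spans 220 kb and carried 4.54.

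All 4 NFI genes held common regions, with 11 at Nfia, 6 at Nfib and 4 each at Nfic and Nfix. Top summits at Nfia numbered 24, 27 and 24 in the NFIA libraries and 23, 25 and 21 in the NFIB libraries. Nfib had 18, 17 and 11 against 9, 14 and 12. At both genes the 2 targets overlapped. The highest-ranked common region of Nfia (chr4:97910827-97911131, inside the gene) held ranks of 638, 414 and 288 in NFIA and 464, 1771 and 416 in NFIB. That of Nfix (chr8:84793973-84794260, inside the gene) held 970, 772 and 727 against 355, 1617 and 1119. None of the 4 genes held a target-only region.

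In the SHH pathway, 11 of 15 listed genes held a common region, with 32 in all, beside 33.5% of all protein-coding genes. Gene length was not adjusted for in the list counts. At the level of the ligand and receptors, Shh and the transducer Smo had 1 each, Ptch1, the receptor that restrains Smo, had 2, and the coreceptor genes Boc, Gas1 and Cdon had 5, 3 and 1. Among the downstream regulators, Sufu, the inhibitor of GLI proteins, had 4, the effectors Gli2 and Gli3 had 10 and 1, and the proliferation targets Mycn and Ccnd2 had 3 and 1. The best Sufu region (chr19:46422499-46422806, inside the gene) ranked 51, 31 and 160 in NFIA and 44, 118 and 42 in NFIB libraries. It was among the strongest of any listed gene, together with the distal Mycn region. Gli2 had 21, 22 and 26 NFIA and 21, 26 and 24 NFIB top summits. Boc had 11, 10 and 10 against 9, 9 and 9, which did not overlap but differed by 1 or 2 summits. Of the same list, Cdon held 1 NFIA-only and Gli3 1 NFIB-only region.

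Among genes of granule progenitor identity on the autosomes, 10 of 17 held a common region, beside 33.5% of all protein-coding genes. Pax6, Meis1 and Olig3 had 3 each, Zic2 and Zic4 had 2, and Atoh1, Barhl1, Meis2, Insm1 and Neurod1 had 1. Atoh1, the proneural factor that defines the granule lineage, had its common region 2974 bases from the gene (chr6:64734219-64734865), with ranks of 7100, 13345 and 10489 in NFIA and 6479, 12669 and 10932 in NFIB. Neurod1, which acts at the onset of granule differentiation, had its region 35 bases from a gene end (chr2:79456671-79457080) and ranks of 2130, 4513 and 1258 against 2760, 1953 and 3340. The Atoh1 region ranked far below the Neurod1 region in each library.

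Of the genes of granule neuron differentiation, 11 of 17 on the autosomes held a common region, with 36 in all, beside 33.5% of all protein-coding genes. Rbfox3, which encodes the neuronal splicing regulator NeuN, had 8, the axon initial segment gene Nfasc 6, the potassium channel gene Kcnj6 5, and the glutamate receptor gene Grm4 4. Snap25, of the synapse, had 3, the adhesion gene Cntn2 and the calcium-binding gene Calb2 had 2, and Neurod2, Cntn1 and Syt1 had 1. Rbfox3 had 23, 21 and 22 NFIA summits and 25, 24 and 21 NFIB summits. Grm4 had 15, 12 and 13 against 12, 9 and 15.

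In the cell cycle list, 9 of 18 genes held a common region, led by Mki67 with 4. In the neural stem and progenitor list, 6 of 11 did, with 2 at Sox9. Promoter windows with a top summit of all 6 libraries were found at Mycn, Gas1, Cdk4, Mki67 and Cdkn2c among all 12 lists. Over all genes, 1151 of 20054 promoter windows had a top summit of all 6. The lists were not tested against this share. The Cdk4 region had ranks of 1480, 4042 and 340 in NFIA and 900, 284 and 525 in NFIB. Markers of other cells also held common regions, in 4 of 9 astrocyte and Bergmann glia genes (2 at Slc1a3), 4 of 7 oligodendrocyte genes (3 at Pdgfra) and 5 of 11 Purkinje cell and interneuron genes (5 at Lhx1). They were found at 2 of 6 vascular, 1 of 5 microglial and 0 of 5 genes of non-neural tissues. Binding near a marker does not measure its expression, so these counts neither show nor exclude other cells in the preparations, and the label could not be checked further. The share over all genes was 33.5%.

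The number of top summits per gene was compared between targets with limma, on log2(summits + 0.5) with preparation as a block. The 9032 genes tested averaged at least 1 summit. Each gene's variance was taken from a trend over genes at its mean value, so its own spread among preparations did not enter its SE or p. None passed an adjusted p of 0.05 (0 of 9032 genes, 0% called), while 347 had an unadjusted p under 0.05, 184 of them with higher values in NFIA. With all listed summits 4351 genes had lower values in NFIA and 0 higher, beside NFIB lists that were longer in every preparation. Called genes also numbered 0 without the block, where 401 genes had an unadjusted p under 0.05. In simulated counts this fit recovered 1 of 100 genes changed 2-fold, 15 of 100 changed 4-fold and 100 of 100 changed 16-fold (the last with a mean of at least 3 summits), so changes of 2-fold to 4-fold could be missed. A fit with limma's variance prior taken over all genes, tried first, called 46 genes. Each of the 46 had 1 summit in every library of a target and 2 in every library of the other, and that fit recovered 0 of 100 simulated 16-fold changes.

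The genes with the smallest p are given as values and passed no test. Plekhg1 had 4, 7 and 1 summits in the NFIA libraries and 1, 1 and 0 in the NFIB libraries. Its log2 fold change of NFIA over NFIB was 1.83 ± 0.45 (SE from the variance trend; limma adjusted p = 0.463). Nid2, which encodes a basement membrane protein, had 2, 7 and 5 against 2, 1 and 1, and Tmem108 had 6, 7 and 5 against 3, 1 and 4. Angpt4 and Gm38469 were the other 2 of the 5 genes with the smallest p and higher values in NFIA. In the other direction, Zc3h12c had 2, 1 and 0 against 5, 2 and 3, and Stard13 3, 1 and 2 against 7, 3 and 6. Celsr3, a planar polarity cadherin of neurons, had 2, 1 and 4 against 5, 6 and 5, and Dctn1, a dynactin subunit, 0, 0 and 1 against 2, 3 and 3, with 2 NFIB-only regions. Cdc42ep4 was the fifth. Among 2511 genes that averaged at least 3 summits, 92 (3.66%) had counts that did not overlap between targets, and 0 passed. In all 12 lists, 0 members passed. The NFI genes had higher mean values in NFIA in 4 of 4 cases (median log2 difference 0.18, against 0.00 over all genes tested), and SHH genes in 8 of 13 with 3 lower (median 0.08). The median was also above 0 for astrocyte and Bergmann glia genes (0.25, with 4 higher and 1 lower) and neural stem and progenitor genes (0.12). Purkinje cell and interneuron genes had 0.10 and vascular genes 0.08. Some lists leaned the other way, with 3 cell cycle genes higher and 9 lower (median −0.26) and 1 oligodendrocyte gene higher and 5 lower (median −0.25). Granule progenitor identity genes had a median of −0.04, granule neuron differentiation genes 0, and the 1 microglial gene tested −0.25. With only the 4 libraries whose list names match the titles, fitted without the block, 3 of 9279 genes passed. They were Plekhg1 and Sall1 with higher and Ext1 with lower values in NFIA. The libraries left out, NFIA of preparation 3 and NFIB of preparation 1, had 1 and 3 summits at Sall1. They had 5 and 1 at Ext1, and 1 and 1 at Plekhg1, so the direction did not hold there.

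The strongest NFIA-only region lay at an end of Pnpla8, a phospholipase gene (chr12:44269264-44269472). Its NFIA ranks were 6128, 5829 and 4856, its scores 9.3, 10.4 and 18.1, and no NFIB list of GNP held a summit there. In hyperplasia, 2 NFIA and 2 NFIB libraries held a top summit in it, and in tumor 3 NFIA and 2 NFIB libraries did. The next by worst rank lay inside Adgrb3, Zfp469, Tcf20 and Tmeff2. The strongest NFIB-only region lay inside Spns3 (chr11:72540376-72540597), with NFIB ranks of 3442, 10523 and 9286 and scores of 27.7, 19.7 and 20.9. A lower-ranked summit there was listed in 1 NFIA library of GNP. In hyperplasia, 2 NFIA and 3 NFIB libraries held a top summit in it, and in tumor again 2 NFIA and 3 NFIB libraries. The Spns3 region was followed by regions at Fars2, Fam184a, Cyyr1 and Tmx3. Target-only regions were nearest to 183 genes for NFIA and 224 for NFIB, of 20661, with 1 gene in both sets. Sets this small would share few genes even if unrelated, and the overlap was not tested. Of the 183 and 224 genes, 62.3% and 59.4% also held a common region, above the 33.5% of all protein-coding genes, although longer genes hold more regions of every kind.

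How target-only regions split between targets was measured in libraries that had not chosen them. For each library the share of NFIB-only regions with a top summit was subtracted from that of NFIA-only regions, and the value of the NFIB library was subtracted from that of the NFIA library of the same preparation. A value above 0 means that the NFIA library, against the NFIB library, held relatively more NFIA-only than NFIB-only regions. It does not require that the NFIA library held more of the NFIA-only regions. Regions chosen from 2 GNP preparations gave 1.06, −6.56 and −5.15 percentage points in the left-out preparations 1, 2 and 3. The mean was −3.55 ± 4.05 (SD, n = 3; exact sign-flip test, two-sided p = 0.5). Common regions chosen in the same way were held by 86.1% to 94.9% in the left-out libraries. NFIA-only regions so chosen were held by 38.6%, 38.8% and 33.0% in the left-out NFIA libraries 1 to 3. In the left-out NFIB libraries these shares were 41.5%, 44.2% and 33.4%. NFIB-only regions were held by 39.3%, 44.0% and 60.6% in the NFIA libraries and by 43.3%, 42.9% and 55.9% in the NFIB libraries. Common regions were chosen for rank, which also sets recurrence, and these shares were not tested against each other.

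In hyperplasia the same difference was 4.19, 16.7 and −6.22 points in preparations 1 to 3, and in tumor −0.55, 18.5 and −3.79. The mean over 6 preparations was 4.81 ± 10.5 (SD, n = 6), above 0 in 3 of 6, with an exact two-sided sign-flip p of 0.406. The 2 preparations in which both list names match the titles had 16.7 and 18.5. The 4 in which a list name carries the other target had −6.22 to 4.19. Preparation 2 of GNP, where both names match, had −6.56. The share that the name mismatch has in these differences was not tested. A positive difference did not always go with more NFIA-only regions in the NFIA library. In hyperplasia preparation 2 the NFIA library held 21.1% of them and the NFIB library 30.7%, beside 68.4% and 89.2% of common regions. In tumor preparation 2 the NFIA-only shares were 42.7% and 34.2%.

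**Figure D4:**
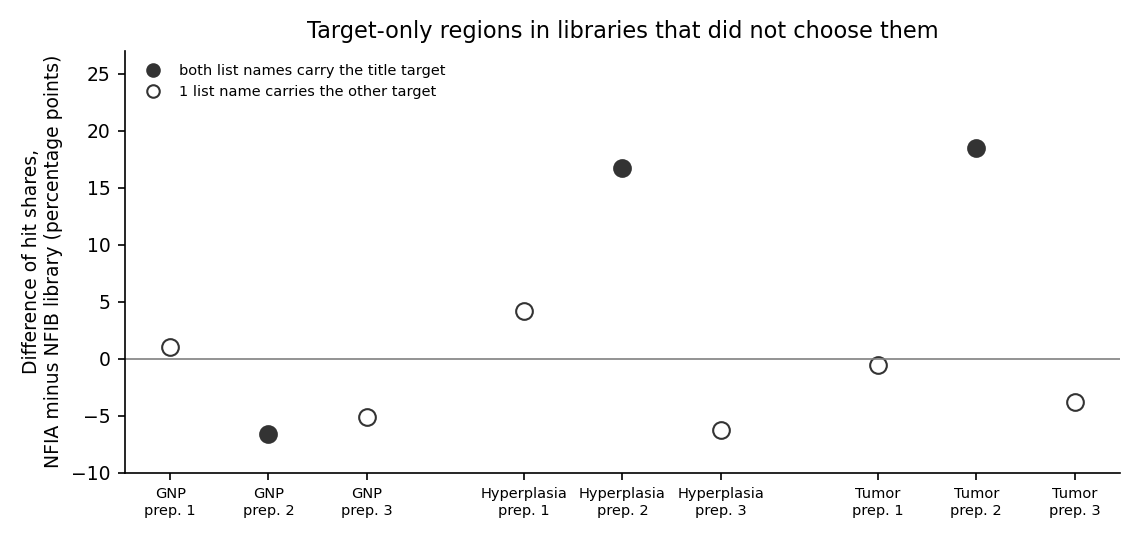
Difference in the share of NFIA-only and NFIB-only regions hit, NFIA minus NFIB library of a preparation (percentage points, vertical axis), for left-out GNP preparations and for hyperplasia and tumor preparations, with filled points where both list names carry the title target. Values lie on both sides of 0, and the 2 highest are filled points, as is the lowest, in GNP.

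Common regions were held by 68.4% to 92.1% in the 12 hyperplasia and tumor libraries (mean 85.6%), NFIA-only regions by 21.1% to 42.7% and NFIB-only regions by 24.7% to 51.8%, against 27.8% to 42.0% of all GNP regions. Of the common regions, 5491 (44.9%) had a top summit in all 12 of these libraries and 54 had none. Of the NFIA-only regions 2 and of the NFIB-only regions 7 were held by all 12. The Tcf20 region, NFIA-only in GNP, held a top summit of 2 NFIA and 1 NFIB hyperplasia libraries and of 1 NFIA and 2 NFIB tumor libraries. No test of these shares was made, since common regions were chosen for rank, which also sets recurrence.

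Promoters were searched for the motif on both strands, in 20054 RefSeq windows of 300 bases from 16429 genes. The whole palindrome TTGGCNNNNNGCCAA occurred in 7 windows (0.0349%) and in 0 of the 1151 with a top summit of all 6 libraries. A single arm, TTGGC or GCCAA, occurred in 48.0% of all windows. Its share was 43.1% where no library had a top summit, and 51.0%, 52.5%, 53.2%, 57.2%, 61.3% and 68.9% with 1 to 6 libraries. Base composition differed as well, with a median GC content of 52.3% in windows without a summit and 64% in those with all 6. Within windows of 50% to 60% GC the shares were 73.0% with all 6 and 48.8% with none, and within 60% to 70% GC they were 67.0% and 43.9%. The longer arm TTGGCA or TGCCAA was in 14.5% of windows with all 6 and in 13.7% of those with none. Within GC bins its shares were 18% and 15.04% at 50% to 60% GC, 15.5% and 8.41% at 60% to 70%, and 6.25% and 3.99% above 70%. Below 50% GC they were 16.7%, of 18 windows, and 17.0%. By library, 60.1%, 60.8% and 60.04% of promoters with an NFIA top summit and 61.3%, 59.4% and 60.2% of those with an NFIB top summit held an arm, so the targets overlapped. These are descriptions of letters, not of binding sites. Regions away from promoters were not searched.

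**Figure D5:**
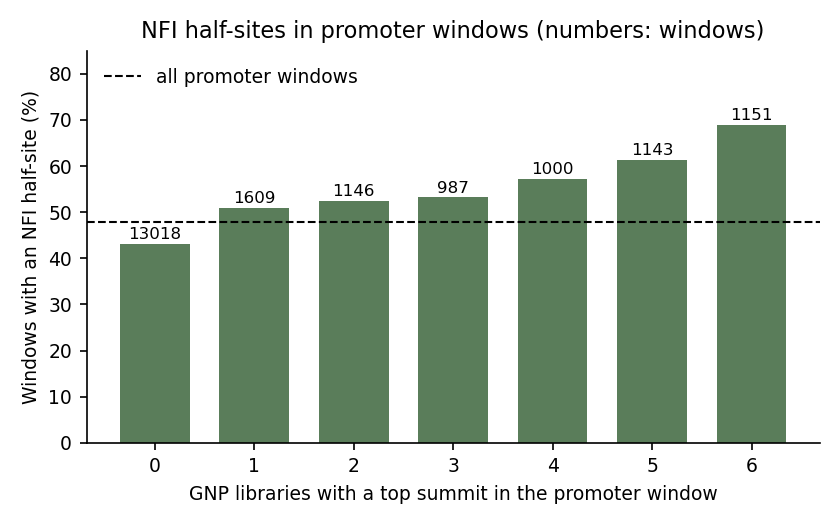
Percent of promoter windows with TTGGC or GCCAA (vertical axis) by the number of GNP libraries with a top summit in the window (horizontal axis), with the number of windows above each bar and the level of all windows (48.0%) as a dashed line. The share rises from 43.1% at 0 libraries to 68.9% at 6.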

How the data were processed

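CUT&Tag summit lists of 6 GNP libraries were analysed, with 12 hyperplasia and tumor libraries as samples that chose no region. The submitters' processing notes name mm10, Bowtie2 (an aligner) and MACS2 (a peak caller) without versions. The deposited lists hold 1-base summits of each library called separately, with the −log10 p-value or q-value the authors' caller gave as score (which of these is not stated). Use of a control library is not stated in the labels. Depth is unknown, so no counting error was computed.

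Targets are by sample title. NFIA and NFIB were paired by the preparation the titles give. Deviations from target means of libraries of the same preparation had correlations of 0.065, −0.043 and 0.039 across genes. Ties in score were broken with seed 1 (8.04% of top summits were tied at the last score kept in NFIA library 1, at most 0.123% elsewhere). Summits and regions went to the closest protein-coding gene of 20661 (RefSeq spans, GRCm38.p6) up to 100 kb away, 125 of 130 list genes lying on the autosomes used. The members and lists were chosen with earlier results of these data known.

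Exact sign-flip and label permutations were run in Python 3.11.15 with SciPy 1.17.1. The gene test used limma 3.58.1 (R 4.3.3) with trend and empirical Bayes, Benjamini-Hochberg over all genes tested, threshold 0.05. Estimating the variance prior over genes with residual spread was adopted after the plain fit had been seen on the data and had failed on simulated data. Named genes were the 5 with the smallest p in each direction, the 15 with the most common regions, the 4 NFI genes and list members with common regions. Some genes that meet these rules are not reported here. Regions named were the first 10 common and 5 of each target by worst rank. Alternatives were other numbers of summits, score minimum, widening, ties, libraries left out, block, pseudocount, filter and gene distance.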

Additional observations from a re-analysis of the deposited data

How the results depend on the processing

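The count of common regions was 6320 with the 15000 highest summits and 25835 with all summits, and 12916 to 14699 without 1 preparation. The count of NFIA-only regions was 108 with the 15000 highest summits, 86 with all summits, 8 with scores of at least 5 and 1325 in the 4 libraries with matching list names. The count of NFIB-only regions was 115, 2921, 3199 and 1975 in the same order, and 405 with windows widened by 50 bases. Leaving out a preparation gave 1113 to 1241 NFIA-only and 1204 to 1875 NFIB-only regions, as fewer libraries must hold a region, and the first title date alone, which holds preparations 1 and 2, gave 1241 and 1875. The same-target minus other-target Jaccard difference was −0.00218 with the 15000 highest summits, −0.000475 with windows widened by 250 bases, −0.00768 to 0.0108 without 1 preparation, 0.0235 with all summits, 0.0768 with scores of at least 5 and 0.0282 with matching list names. The same-preparation difference was −0.00715 to 0.0198 without 1 preparation. The difference near gene ends was 2.09 points with all summits, 4.92 with scores of at least 5 and −3.10 to −0.093 without 1 preparation. The difference of target-only regions in hyperplasia and tumor was −0.519 with the 15000 highest summits (p = 0.906), −1.35 with all summits (p = 0.906) and, in an alternative chosen after seeing the data, 2.43 without the second hyperplasia preparation (exact p over its alternatives 0.125 to 1). The cause was not tested in these cases.

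In the gene comparison, 4351 of 14658 genes were called with all summits and 4176 of 11587 with scores of at least 5, all with lower values in NFIA. With the 4 libraries with matching names 3 of 9279 were called, and 0 with any 1 of the 3 preparations left out. The plain variance prior, which was run first, called 46 genes, and 58 without the replicate block. The prior used in the report replaced it after the data had been seen. The fit without the replicate block called 0 genes, as did the fit with it. The preparations' pairing comes from the titles. Reversed values were found with all summits and with scores of at least 5 for Angpt4 (−0.69, −1.94), Gm38469 (−0.48, −0.77), Nid2 (−0.79, −1.48), Plekhg1 (−0.95, −1.04) and Tmem108 (−0.84, −1.19), each as a log2 fold change. With neither reads nor coverage, differences in signal within shared regions could not be measured, and 3 preparations limit every test within GNP.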

Other observations

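Grouping the GNP libraries by the target in the name of the deposited list, in place of the title, gave 265 regions held by just the 3 lists named for NFIA and 426 held by just the 3 named for NFIB, beside 199 and 251 by title. Neither grouping was tested, and both sets are small beside the 12239 common regions.

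The region 167 bases from an end of Stmn2, a neurite growth gene, and the 2 highly ranked regions on chromosomes 10 (chr10:34904373-34904614) and 11 (chr11:22698533-22698804) with no protein-coding gene within 100 kb were held by all 6 GNP libraries. The region on chromosome 11 ranked 44, 37 and 14 in NFIA and 38, 71 and 11 in NFIB.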
